A study of Homo sapiens with 28 samples.

Results

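The subunits of RNA polymerases I, II and III were followed through a pooled knockout screen and an RNA-seq experiment in U2OS, a human osteosarcoma cell line. Members were all genes whose symbol starts with POLR1, POLR2 or POLR3 followed by a letter. This gave 30 of the 19050 gene names in the screen, with 167 of 109367 guides, and 31 of 25807 symbols in the RNA table, where POLR2J4, a copy of POLR2J, was added. By the enzymes that hold them, 3 were Pol I only (POLR1A, POLR1B, POLR1E), 2 were shared by Pol I and III (POLR1C, POLR1D) and 10 were Pol II only (POLR2A, B, C, D, G, I, J, J2, J3 and M). A further 5 sit in all 3 polymerases (POLR2E, F, H, K and L), and 10 were Pol III only, among them POLR3A, POLR3B and POLR3K.

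RNA polymerase I transcribes the large ribosomal RNA precursor, polymerase II transcribes messenger RNAs and many small nuclear RNAs, and polymerase III transcribes transfer RNAs, 5S ribosomal RNA and other short RNAs. Each enzyme has a pair of large subunits that form the catalytic cleft, an assembly platform and a stalk. Smaller subunits are shared, and polymerases I and III carry further subunits that act in initiation and termination.

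In the screen, p53 wild-type (WT) cells and a p53 knockout (KO) derivative carried a pooled guide library, and guides were counted in genomic DNA at T0 (0 h) and at 96 h, when cultures had received either DMSO or etoposide at 5 µM, a topoisomerase II poison. The titles call the DMSO libraries untreated, and DMSO comes from the treatment notes. Each of these 6 groups had 3 libraries, lettered A, B and C. For RNA-seq, p53 WT cells were sampled at T0 or after 8 h in medium conditioned by WT or KO donor cells that had received DMSO or 31.6 µM etoposide, with 2 libraries, A and B, in each of 5 groups. Here the titles name DMSO, and the treatment notes call those donors untreated. All recipient cells were p53 WT, and the screen reads guides rather than p53, so these measurements do not check the knockout label. Whether the KO derivative is 1 clone is not given in the sources used here. Nothing states that libraries of a group were separate cultures, so p-values measure only the spread between these samples.

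Screen libraries held 30.4 to 48.2 M counts and RNA libraries 16.8 to 20.3 M. Member guides had a mean count of 72.7 to 1075 over the 18 screen libraries, with a median of 269. The 3 KO etoposide libraries differed more from each other (chi-square per degree of freedom 10.6 to 17.2) than those of any other screen group, and KO DMSO medium A and B (12.8) more than any other RNA pair (1.90 to 5.09). In the RNA libraries the bone-lineage marker COL1A1 stood at 7386 to 9929 CPM, counts scaled to the library total. The bone-lineage markers ALPL and RUNX2 stood at 20.8 to 80.2 and 10.3 to 55.2 CPM. A further one, SPP1, was low at 1.88 to 6.22 CPM and overlapped the epithelial marker EPCAM (1.37 to 2.75 CPM). The leukocyte marker PTPRC was at most 1.40 CPM and the endothelial marker PECAM1 at most 0.0996 CPM.

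Over 96 h of growth in DMSO, guides against subunits found in Pol III, in Pol II and in all 3 enzymes were lost from p53 WT cells. Among the members the largest loss was that of POLR3K. Of 30 members, 11 fell and none rose by edgeR's quasi-likelihood test on guide counts summed per gene (Benjamini-Hochberg adjusted p under 0.05), where 5.4% of all 19044 genes fell and 1.13% rose. The members' median log2 fold change was −0.12, against 0.00 for all genes tested. By class, 3 of 10 Pol III only, 5 of 10 Pol II only, 2 of 5 fully shared and 1 of 2 Pol I and III subunits fell, and 0 of 3 Pol I only. No screen library preceded T0, so any loss of guides before T0 was not measured for any class. At an unadjusted p under 0.05 there were 16 of 30 members, all lower, and 3440 of all 19044 genes in either direction. In 14 members all 3 DMSO libraries lay below all 3 T0 libraries, as in 12.6% of all genes.

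POLR3K is a small Pol III subunit that acts in RNA cleavage and termination. Its summed guides stood at 38.0, 36.4 and 36.7 CPM in WT T0 libraries A, B and C and at 26.1, 25.3 and 26.8 CPM in DMSO. Every DMSO library lay below every T0 library, and the log2 fold change was −0.50 ± 0.06 (SE, 3 libraries a group, adjusted p = 2.76e-09, edgeR). All 5 guides were lower, from −0.71 to −0.33, and 3 of them were called singly, where 1.37% of all guides were called lower. POLR3A, the largest Pol III subunit, forms the active site with POLR3B. POLR3A went from 44.6, 42.3 and 44.7 CPM to 32.1, 34.7 and 32.4 CPM (−0.41 ± 0.06, adjusted p = 1.94e-07), with 6 of 6 guides lower. POLR3B went from 51.7, 50.4 and 50.7 CPM to 35.1, 41.5 and 42.9 CPM (−0.36 ± 0.06, adjusted p = 9.66e-07), with 5 of 6 guides lower. For both large subunits the groups did not overlap, and DMSO library A was the lowest for each.

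**Figure D1:**
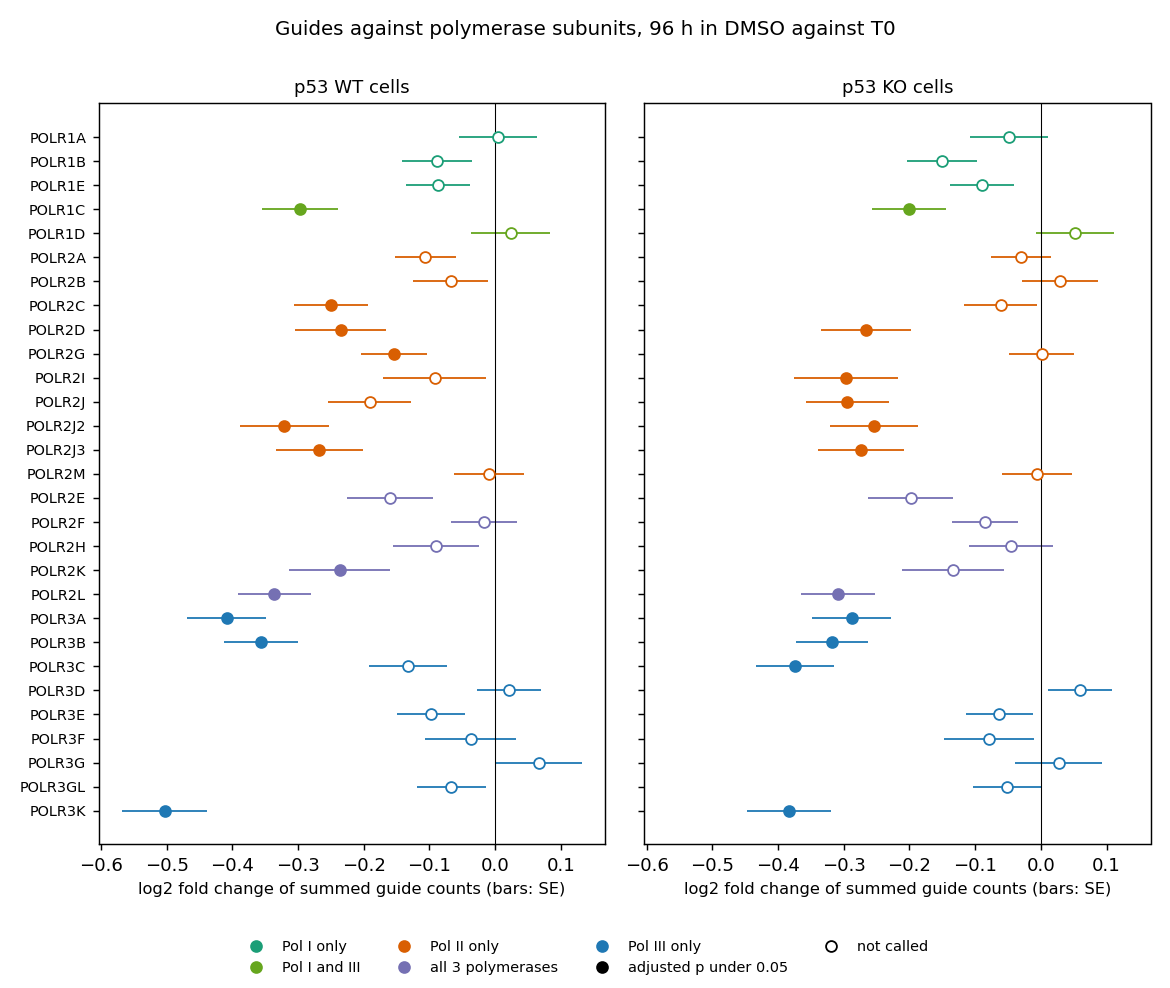
Log2 fold change of summed guide counts between 96 h in DMSO and T0 for 29 members in p53 WT (left) and p53 KO cells (right), with bars for the SE over 3 libraries a group. Filled points passed an adjusted p of 0.05: 11 of those plotted in WT and 11 in KO cells, all to the left of 0, and none of the 3 Pol I only subunits.

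The other Pol III only subunits varied widely. POLR3C, part of the initiation subcomplex with POLR3F and POLR3G, stood at −0.13 in WT growth (adjusted p = 0.201). POLR3E stood at −0.10, POLR3GL at −0.07 and POLR3F at −0.04. POLR3D stood at 0.02 and POLR3G, the alternative form of POLR3GL, at 0.07, and none of these 5 passed the test. The class thus held the 3 lowest members together with the highest one.

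Among subunits held by several enzymes, POLR2L, a small zinc-binding subunit of all 3, fell in WT cells from 51.6, 51.0 and 52.8 CPM to 40.1, 42.2 and 40.9 CPM. The groups were far apart (−0.34 ± 0.06, adjusted p = 3.03e-06) and all 6 guides were lower. POLR1C, which with POLR1D builds the assembly platform of Pol I and III, went from 49.4, 42.6 and 46.5 CPM to 35.7, 40.5 and 36.4 CPM (−0.30 ± 0.06, adjusted p = 8.98e-05). Its partner POLR1D stood at 0.02. POLR2K fell by 0.24 (adjusted p = 0.0442), a call lost when T0 B, T0 C or either of DMSO A and B was left out. The remaining shared subunits, POLR2E (−0.16), POLR2H (−0.09) and POLR2F (−0.02), were not called.

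Among Pol II only subunits in WT cells, POLR2C, the platform partner of POLR2J, fell from 48.1, 47.5 and 49.4 CPM to 37.9, 43.2 and 41.1 CPM (−0.25 ± 0.06, adjusted p = 0.000903). POLR2D and POLR2G form the stalk of Pol II. POLR2D fell by 0.24 ± 0.07 (adjusted p = 0.0214), although DMSO A at 34.7 CPM lay within the T0 range of 33.4 to 35.6, and the call was lost when T0 B, T0 C or either of DMSO B and C was left out. POLR2G fell by 0.15 ± 0.05 (adjusted p = 0.0435), a call lost by limma and when any 1 of 5 libraries (all but DMSO A) was left out. The catalytic subunits POLR2A (−0.11, adjusted p = 0.18) and POLR2B (−0.07), POLR2I (−0.09) and POLR2M (−0.01), a regulator rather than a core subunit, did not pass. POLR2J2 fell by 0.32 ± 0.07 (adjusted p = 0.000363) and POLR2J3 by 0.27 ± 0.07 (adjusted p = 0.00335, lost without DMSO A), while POLR2J missed the threshold (−0.19 ± 0.06, adjusted p = 0.0502). These 3 genes are near-identical copies whose guides may cut more than 1 copy, which was not checked. Without them 3 of 7 Pol II only subunits fell in WT cells, and the class median moved from −0.17 to −0.11.

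The 3 Pol I only members were not called in WT growth. The Pol I subunits TWISTNB, CD3EAP and ZNRD1 have symbols outside the rule and are taken up below. POLR1A, the largest Pol I subunit, stood at 42.3, 43.4 and 40.5 CPM at T0 and at 41.4, 39.2 and 45.8 CPM in DMSO, so the groups overlapped (0.00 ± 0.06). POLR1E, an initiation subunit, stood at −0.09 ± 0.05 (adjusted p = 0.341) and POLR1B, the second-largest subunit, at −0.09. Under scaling to the 999 non-targeting guides, which lowers the median of all genes by 0.07 in this comparison, 19 members fell in place of 11.

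In p53 KO cells 12 of 30 members fell over 96 h in DMSO and none rose, where 3.09% of all genes fell and 0.42% rose. The median was −0.11, and 5 of 10 Pol III only, 5 of 10 Pol II only, 1 of 5 fully shared, 1 of 2 Pol I and III and 0 of 3 Pol I only members fell. Without POLR2J, POLR2J2 and POLR2J3, 2 of 7 Pol II only subunits fell in KO cells. The median of that class then moved from −0.16 to −0.03. ZNRD1, a Pol I subunit outside the symbol rule, also fell in KO growth and is given below. POLR3C went from 51.4, 47.6 and 47.2 CPM at T0 to 36.0, 35.2 and 41.4 CPM in DMSO (−0.37 ± 0.06, adjusted p = 2.66e-06), with 6 of 6 guides lower. POLR3K went from 39.4, 41.6 and 38.1 CPM to 28.4, 31.1 and 31.8 CPM (−0.38 ± 0.06, adjusted p = 9.58e-06). Neither gene's groups overlapped. Also lower were POLR3B (−0.32, adjusted p = 2.16e-05) and POLR3A (−0.29, adjusted p = 0.000675).

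POLR2L fell in KO cells from 47.9, 52.0 and 50.2 CPM to 40.3, 40.3 and 40.7 CPM (−0.31 ± 0.06, adjusted p = 4.68e-05). This subunit and POLR3K, POLR3A and POLR3B kept their calls in both genotypes under all 12 alternatives run for each comparison. POLR2I, which acts in Pol II proofreading, fell by 0.30 ± 0.08 (adjusted p = 0.0135, 3 guides), a call lost without T0 A or DMSO B. POLR2J fell by 0.29 (adjusted p = 0.00105), POLR2J3 by 0.27 (adjusted p = 0.00379), POLR2D by 0.27 (adjusted p = 0.00979) and POLR2J2 by 0.25 (adjusted p = 0.0121). Of these 4, POLR2J3 and POLR2D lost the call without T0 B, and POLR2J2 without T0 B or DMSO A. POLR1C fell by 0.20 (adjusted p = 0.0236), a call lost when T0 A, T0 C or either of DMSO B and C was left out. Of the Pol I only subunits, POLR1B stood at −0.15 (adjusted p = 0.1), POLR1E at −0.09 and POLR1A at −0.05.

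The difference in growth between the genotypes was tested directly as an interaction, and no member passed (0.00525% of all genes did in either direction). At an unadjusted p under 0.05 there were 3 of 30 members and 1462 of all 19044 genes. DESeq2 and limma called 0 members. Those 3 were POLR3C, at −0.24 ± 0.08 (KO minus WT, adjusted p = 0.394), POLR2C at 0.19 ± 0.08 (adjusted p = 0.533) and POLR2G at 0.16 ± 0.07 (adjusted p = 0.583). POLR2I stood at −0.20 ± 0.11 (adjusted p = 0.676). The starting pools also differed. At T0, 4 members were higher in KO than in WT cells (2.4% of all genes were): POLR3E (0.23, adjusted p = 0.00368), POLR2H (0.26, adjusted p = 0.00942), POLR3B (0.20, adjusted p = 0.0232) and POLR3C (0.20, adjusted p = 0.0299). Without WT T0 A none of the 4 was called, and 2 of them were called without WT T0 B, WT T0 C, KO T0 A or KO T0 C. POLR3C was lost without any 1 of the 6 libraries and by limma. POLR3C guides stood at 42.5, 41.2 and 43.3 CPM in WT T0 and at 51.4, 47.6 and 47.2 CPM in KO T0, and its growth values in the 2 genotypes are taken from these starting levels.

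**Figure D2:**
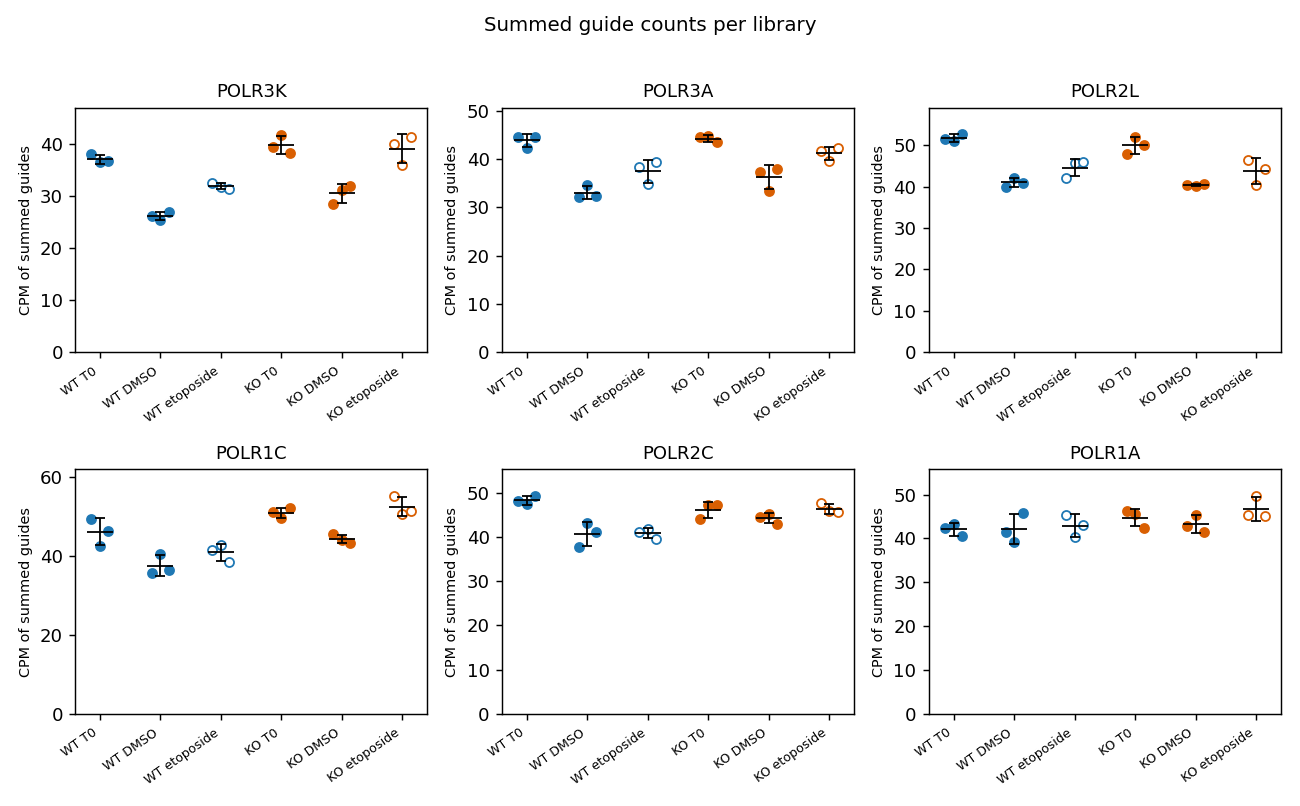
Summed guide counts per library, in CPM, of POLR3K, POLR3A, POLR2L, POLR1C, POLR2C and POLR1A in the 6 screen groups (blue WT, orange KO), with filled points for T0 and DMSO, open points for etoposide, and a bar for the mean and SD of 3 libraries. POLR3K lies at 36.4 to 38.0 CPM in WT T0, 25.3 to 26.8 in WT DMSO and 31.3 to 32.4 in WT etoposide, while the POLR1A groups overlap.

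After 96 h in etoposide, guides against POLR3K were more abundant than after 96 h in DMSO in both genotypes. In WT cells POLR3K stood at 32.4, 31.6 and 31.3 CPM in etoposide, above every DMSO library and below every T0 library (0.28 ± 0.07 against DMSO, adjusted p = 0.00376). It was the only 1 of 30 members called in that comparison, where 1.91% of all genes were higher and 0.294% lower. In KO cells POLR3K stood at 40.0, 35.9 and 41.3 CPM in etoposide, above every DMSO library and overlapping the T0 range of 38.1 to 41.6 CPM (0.36 ± 0.07, adjusted p = 3.85e-05). Both calls held under all 12 alternatives. The comparison shares its DMSO libraries with the growth comparison, so a gene low in DMSO is lower in one and higher in the other.

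In KO cells 3 of 30 members rose in etoposide against DMSO, where 3.05% of all genes did, and none fell (1.18%). Besides POLR3K these were POLR1C, at 45.6, 44.0 and 43.4 CPM in DMSO and 55.3, 50.8 and 51.5 CPM in etoposide (0.25 ± 0.06, adjusted p = 0.00277), and POLR1E (0.16 ± 0.05, adjusted p = 0.0344). The POLR1C call was lost without KO etoposide A. POLR1E was lost without DMSO A or any 1 etoposide library, by DESeq2, by limma and when only the libraries compared were fitted. The count of members was 1 without KO etoposide A and 6 without KO DMSO C, and in WT cells it was 3 without WT DMSO C. Other members with the smallest p in their class were not called: in WT cells POLR2H (0.17, adjusted p = 0.198), POLR1C (0.13, adjusted p = 0.314), POLR2G (0.09, adjusted p = 0.475) and POLR1E (0.07, adjusted p = 0.562), and in KO cells POLR2L (0.12, adjusted p = 0.274) and POLR2J (0.14, adjusted p = 0.218). No member passed the interaction of etoposide and genotype (0.0525% of all genes did), and 0 did by DESeq2 or limma. At an unadjusted p under 0.05 there were 2 of 30 members and 1950 of all 19044 genes. Those 2 were POLR2G (−0.16, KO minus WT, adjusted p = 0.391) and POLR2E (0.19, adjusted p = 0.483). The smallest p values of the other classes were those of POLR1C (0.12, adjusted p = 0.646), POLR3GL (−0.11, adjusted p = 0.664) and POLR1E (0.09, adjusted p = 0.694).

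**Figure D3:**
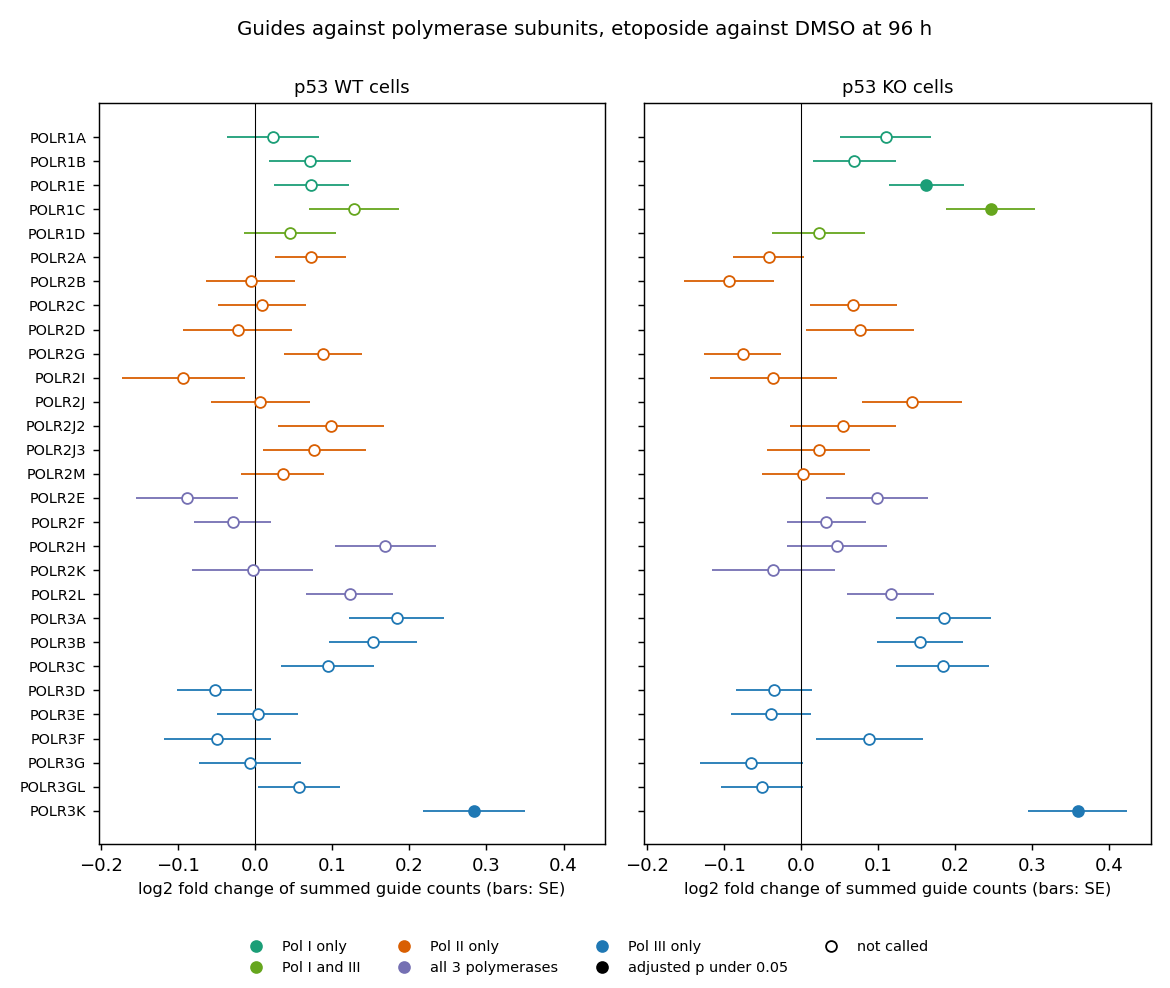
Log2 fold change of summed guide counts between etoposide and DMSO, both at 96 h, for 29 members in p53 WT (left) and p53 KO cells (right), with bars for the SE. Filled points passed an adjusted p of 0.05: POLR3K at 0.28 in WT cells, and POLR3K, POLR1C and POLR1E at 0.36, 0.25 and 0.16 in KO cells.

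Against T0, etoposide-treated WT cells had lost guides against 5 of 30 members, where 0.788% of all genes fell. These were POLR2C (−0.24, adjusted p = 0.0099), POLR2L (−0.21, adjusted p = 0.0318), POLR2E (−0.25, adjusted p = 0.0361), POLR3A (−0.23, adjusted p = 0.042) and POLR2D (−0.26, adjusted p = 0.0456). POLR2E, a jaw subunit of all 3 enzymes, stood at 37.7, 37.5 and 37.2 CPM at T0 and 29.4, 32.0 and 33.1 CPM in etoposide. The calls depended on single libraries: 1 member was called without T0 A, T0 B, etoposide A or etoposide B, and 0 without T0 C or etoposide C. DESeq2 did not call POLR2D, nor limma POLR2E. In KO cells POLR2I (−0.33, adjusted p = 0.0136) and POLR2J3 (−0.25, adjusted p = 0.0288) fell, 2 of 30 where 0.746% of all genes did. Neither call held without etoposide A or without etoposide B, and 1 of them held without any other library of the comparison. Limma did not call POLR2J3. Not called in KO cells were POLR2L (−0.19, adjusted p = 0.0654), POLR3C (−0.19, adjusted p = 0.104) and POLR1D (0.07, adjusted p = 0.708), and in WT cells POLR1C (−0.17, adjusted p = 0.213), each with the smallest p in its class. The Pol I only members with the smallest p stood at 0.03 in WT cells (POLR1A, adjusted p = 0.948) and −0.08 in KO cells (POLR1B, adjusted p = 0.621).

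Subunits whose symbols fall outside the rule, and the factors that work with the polymerases, were read in the same fits, where 5.4% of all genes fell in WT growth and 3.09% in KO growth. CRCP, a Pol III subunit, fell by 0.63 in WT growth (adjusted p = 9.7e-12) and by 0.33 in KO growth (adjusted p = 0.00067), and rose by 0.24 in etoposide against DMSO in each genotype (adjusted p = 0.039 and 0.025). ZNRD1, a small Pol I subunit, fell by 0.27 in KO growth (adjusted p = 0.0019). Of the 4 subunits outside the rule (CRCP, ZNRD1, TWISTNB and CD3EAP), 1 fell in WT and 2 in KO growth. TWISTNB and CD3EAP, both of Pol I, were called in neither. Of 16 Pol III factors 7 fell in WT and 5 in KO growth, among them SNAPC2 (−0.53, WT), which binds small nuclear RNA promoters, and GTF3C1 (−0.42 in WT, −0.36 in KO), the largest subunit of TFIIIC. Of 7 Pol I factors 3 and 2 fell, including TAF1C (−0.26 and −0.19), and of 7 assembly factors 4 and 4, including RPAP3 (−0.25 and −0.31) and GPN2 (−0.32 and −0.31). Of 31 Pol II general factors 11 and 5 fell, led by TAF2 (−0.35) in WT and TAF5 (−0.31) in KO cells, both TFIID subunits. Of 24 Pol II elongation factors 7 and 3 fell, with NELFB (−0.36 and −0.24), of the pausing complex NELF, and SSRP1 (−0.30 and −0.31), of the histone chaperone FACT, the clearest in both. Of 5 genes of mitochondrial transcription 3 fell in WT and 1 in KO growth. In etoposide against DMSO 3 of the 5 rose in each genotype, where 1.91% and 3.05% of all genes did. Among them POLRMT, the single-subunit mitochondrial polymerase, fell by 0.53 and 0.50 in growth. In etoposide against DMSO POLRMT rose by 0.47 and 0.61.

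In the RNA libraries all 31 members passed the filter on low counts. Scaled per kilobase of the deposited gene length, the mean level over the 10 libraries was highest for POLR2L (159 ± 9.9 CPM per kb, SD) and POLR2J (141 ± 11.1), which overlapped within their SDs. POLR2I (77.7 ± 5.5) and POLR2A (64.5 ± 16.4) followed and overlapped within their SDs. The most abundant Pol I only transcript was POLR1E (56.0 ± 4.2), and among Pol III only transcripts POLR3D stood at 18.4 ± 4.0. At the low end were POLR3B (3.41 ± 0.29), POLR2J4 (2.45 ± 0.17) and POLR2M (1.42 ± 0.26). Reads of POLR2J and its copies POLR2J2, POLR2J3 and POLR2J4 may be shared between near-identical sequences, so their levels are uncertain. In bulk RNA, fewer cells of a kind and less RNA per cell cannot be told apart.

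Medium from etoposide-treated WT donors, against medium from DMSO-treated WT donors, raised 7 and lowered 3 of 31 members after 8 h, while 16.1% of all 15391 genes rose and 18.5% fell and the members were thus not far from the background. POLR3D, which helps Pol III start and stop transcription, stood at 24.6 and 26.6 CPM in DMSO medium A and B and at 35.9 and 38.9 CPM in etoposide medium. The groups did not overlap (0.55 ± 0.11, SE, adjusted p = 0.000524, edgeR), and this was the 1 call of the 10 kept under all 8 alternatives. POLR1C stood at 42.5 and 38.8 CPM in DMSO medium and 55.2 and 53 CPM in etoposide medium (0.41 ± 0.10, adjusted p = 0.00455). POLR3F, of the initiation subcomplex, rose by 0.44 ± 0.14 (adjusted p = 0.0201), POLR2F by 0.36 (adjusted p = 0.00538), POLR1B by 0.31 (adjusted p = 0.013), POLR2H by 0.28 (adjusted p = 0.013) and POLR2D by 0.25 (adjusted p = 0.0285). Among those that fell were POLR3C (−0.26, adjusted p = 0.00998) and POLR2B (−0.21, adjusted p = 0.0279). Without DMSO medium A 3 members were called, without DMSO medium B or etoposide medium B 4, and without etoposide medium A 6.

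With KO donors, etoposide medium against DMSO medium again raised 7 and lowered 3 of 31 members, where 18.8% of all genes rose and 18.4% fell. POLR3D stood at 28.1 and 35.8 CPM in DMSO medium and 49.0 and 45.2 CPM in etoposide medium (0.56 ± 0.10, adjusted p = 0.000261). POLR3A stood at 48.2 and 60.7 CPM and at 81.5 and 73.5 CPM (0.51 ± 0.09, adjusted p = 0.000299), and POLR2K at 35.7 and 31.7 CPM and at 44.3 and 49.6 CPM (0.48 ± 0.09, adjusted p = 0.000326). In these 3 genes both etoposide libraries lay above both DMSO libraries, although DMSO medium A and B stood well apart for POLR3A and POLR3D. POLR2A rose by 0.51 (adjusted p = 0.0105, lost by DESeq2 and without etoposide medium A), POLR3F by 0.46 (adjusted p = 0.0106, lost without etoposide medium A), POLR2D by 0.38 (adjusted p = 0.00122) and POLR1C by 0.31 (adjusted p = 0.0223, lost without DMSO medium A or etoposide medium B and when only the libraries compared were fitted). POLR3K went the other way, from 11.4 and 13.1 CPM to 8.84 and 8.53 CPM (−0.49 ± 0.13, adjusted p = 0.0066). POLR2E (−0.23, adjusted p = 0.0186) fell too, a call lost without DMSO medium B or etoposide medium A and when only the libraries compared were fitted. POLR1B, the Pol I only member with the smallest p, stood at 0.20 (adjusted p = 0.0779).

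**Figure D4:**
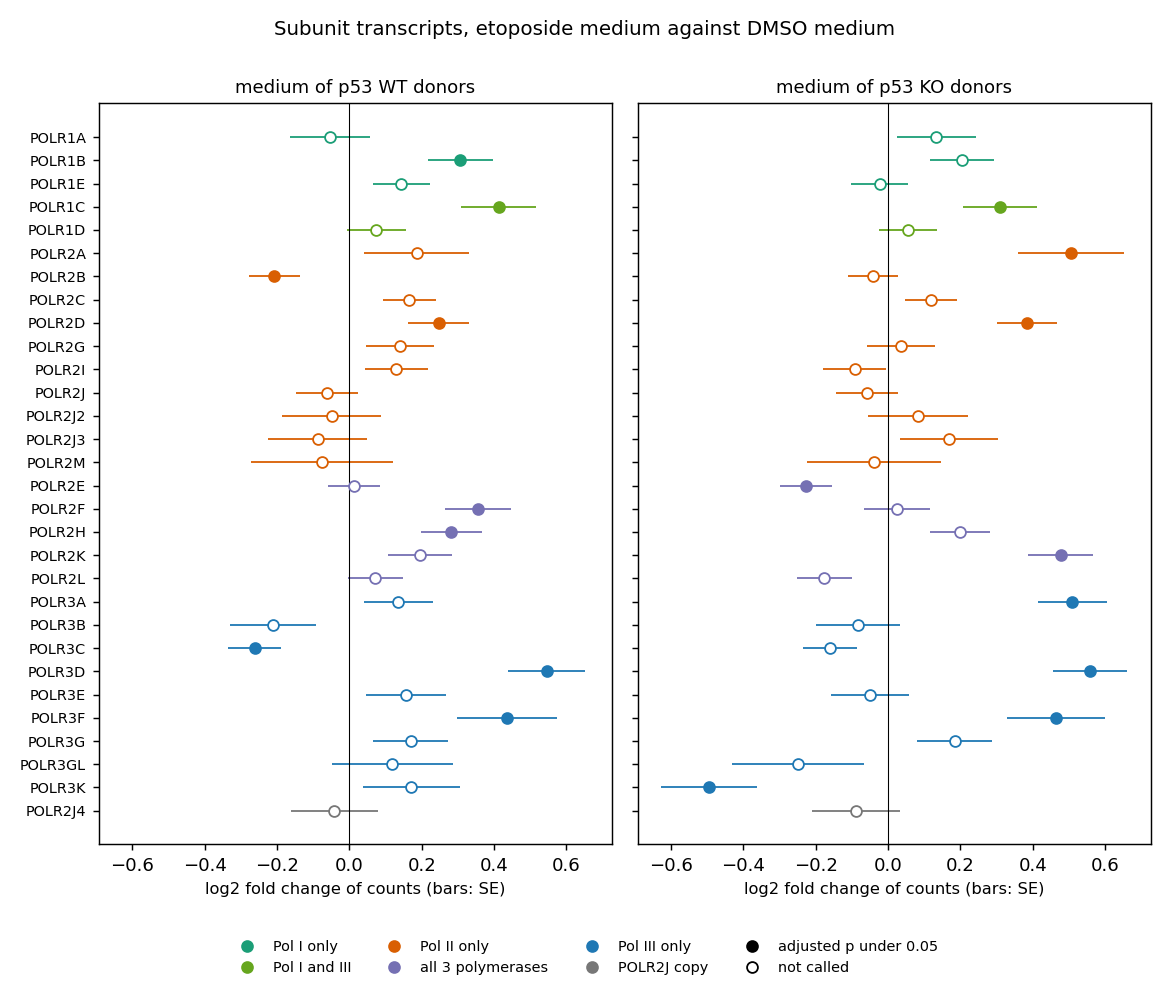
Log2 fold change of transcript counts between etoposide medium and DMSO medium for 30 members, with medium from p53 WT donors (left) and p53 KO donors (right) and bars for the SE over 2 libraries a group. Filled points passed an adjusted p of 0.05; POLR3D lies at 0.55 and 0.56, and POLR3K at 0.17 (not called) and −0.49.

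Called higher with both donors were 4 members, POLR1C, POLR2D, POLR3D and POLR3F. The 2 comparisons share no library. Of all genes 16.1% and 18.8% were higher in each taken singly, and the share higher in both was not counted. The 4 members are thus not set against a background. Of the 31 members 21 had a promoter in the RefSeq table (GRCh38.p14, 250 bases before to 50 after the start). The promoters of POLR1C (chr6:43516839-43517138, plus strand), POLR2D (chr2:127858106-127858405, minus strand) and POLR3F (chr20:18467140-18467439, plus strand) are shown because these transcripts rose with both media, and capitals mark matches to 6 motifs searched on both strands, none of which contains another.
POLR1C: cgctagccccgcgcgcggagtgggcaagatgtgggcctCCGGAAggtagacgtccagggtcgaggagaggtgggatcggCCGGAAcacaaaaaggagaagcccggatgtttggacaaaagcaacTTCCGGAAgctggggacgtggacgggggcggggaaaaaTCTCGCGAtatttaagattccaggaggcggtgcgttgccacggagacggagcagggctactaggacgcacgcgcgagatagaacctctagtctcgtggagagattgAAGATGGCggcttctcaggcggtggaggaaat
POLR2D: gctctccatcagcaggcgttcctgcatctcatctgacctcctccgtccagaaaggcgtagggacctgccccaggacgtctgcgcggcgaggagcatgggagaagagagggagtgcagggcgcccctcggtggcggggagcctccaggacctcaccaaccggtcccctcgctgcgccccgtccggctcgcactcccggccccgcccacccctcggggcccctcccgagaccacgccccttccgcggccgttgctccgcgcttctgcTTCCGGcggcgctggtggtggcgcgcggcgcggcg
POLR3F: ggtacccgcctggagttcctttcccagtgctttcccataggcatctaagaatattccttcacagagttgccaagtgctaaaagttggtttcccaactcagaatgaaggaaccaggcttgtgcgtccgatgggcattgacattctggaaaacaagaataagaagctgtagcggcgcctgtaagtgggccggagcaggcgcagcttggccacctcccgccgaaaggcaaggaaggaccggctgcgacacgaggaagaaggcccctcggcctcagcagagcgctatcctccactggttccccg
The first search used 3 motifs, the E-box CACGTG, the TATA box TATAAA and the palindromic NRF1 motif, and these 3 promoters held none of them. Of the 21 matched members 3 held the E-box (POLR3A, POLR3C, POLR3E), 1 the TATA box (POLR2M) and 3 the NRF1 motif (POLR2F, POLR2H, POLR3B), against 7.26%, 11.5% and 1.24% of 35116 promoters. The other 3 motifs, the ETS core CCGGAA, the YY1 core AAGATGGC and the BANP core TCTCGCGA, were added after the POLR1C promoter had been read, so their presence there is no finding. POLR1C held all of these 3, POLR2D held CCGGAA and POLR3F held none. CCGGAA was in the promoters of 12 of the 21 matched members and in 17.2% of all promoters, AAGATGGC in 1 (POLR1C) and 2.89%, and TCTCGCGA in 1 (POLR1C) and 1.15%. For each of the 6 motifs, a member counted if any of its promoter entries matched (27 entries for 21 members). The percentages of all promoters are per entry, so the counts and percentages are not in the same unit. A match describes letters only, and whether a factor bound there was not measured.

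Medium of KO donors was also set against medium of WT donors. In etoposide medium POLR3A (0.35 ± 0.09, adjusted p = 0.0196) and POLR3D (0.33 ± 0.10, adjusted p = 0.0335) were higher with KO donors and POLR3GL (−0.62 ± 0.18, adjusted p = 0.0239) was lower, 2 and 1 of 31 where 8.5% and 5.57% of all genes were. POLR3GL stood at 8.47 and 6.62 CPM with WT and at 4.24 and 5.62 CPM with KO donors. None of the 3 was called without KO etoposide medium A or without WT etoposide medium A. Without WT etoposide medium B only POLR3GL of the 3 was called, and without KO etoposide medium B POLR3D was lost. DESeq2 did not call POLR3GL. In DMSO medium 0 members were called (0.793% of all genes were higher and 0.767% lower), and 2 by DESeq2. At an unadjusted p under 0.05 there were 9 of 31 members, all higher, and 3041 of all 15391 genes in either direction. POLR3E came closest (0.39 ± 0.11, adjusted p = 0.0645), and 8 members were called without KO DMSO medium A, 1 of the RNA pair that differed most. The interaction of etoposide medium and donor gave 0 members (2.12% of all genes in either direction), and 0 by DESeq2. At an unadjusted p under 0.05 there were 6 of 31 members and 2918 of all 15391 genes. POLR3K was nearest, at −0.67 ± 0.19 (KO minus WT donors, adjusted p = 0.067), and 2 members were called without KO DMSO medium A or B.

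**Figure D5:**
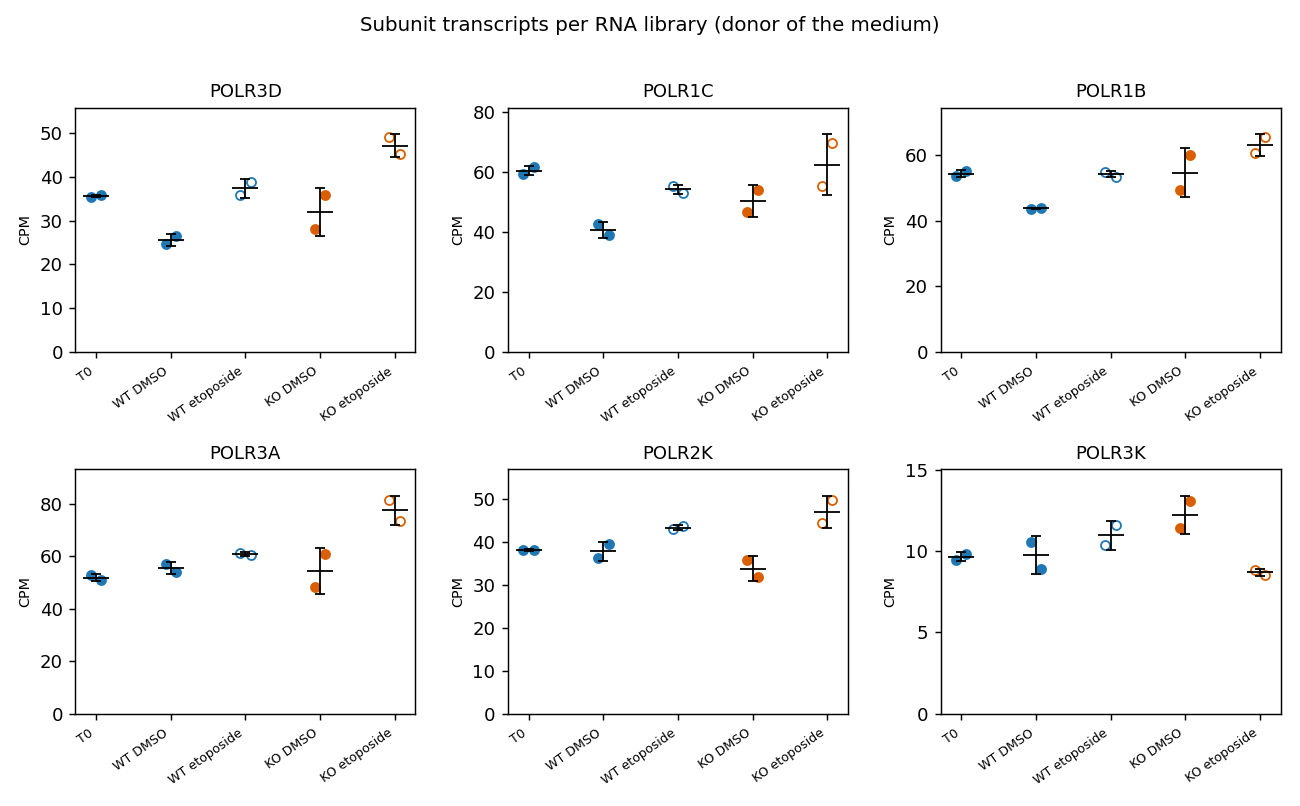
CPM in each RNA library of POLR3D, POLR1C, POLR1B, POLR3A, POLR2K and POLR3K at T0 and after 8 h in medium of WT or KO donors treated with DMSO (filled points) or etoposide (open points), in orange for KO donors, with bars for the mean and SD of 2 libraries. POLR3D stands at 24.6 and 26.6 CPM in WT DMSO medium and at 49.0 and 45.2 CPM in KO etoposide medium, and POLR3K is lowest in KO etoposide medium at 8.84 and 8.53 CPM.

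Against T0, 3 members were higher and 3 lower after 8 h in DMSO medium of WT donors, where 17.8% of all genes rose and 17.6% fell. T0 was sampled at 0 h and no group spent 8 h in unconditioned medium. Time and conditioned medium therefore cannot be told apart in the comparisons with T0. POLR3G rose from 15.5 and 16.5 CPM to 23.4 and 24.1 CPM (0.57 ± 0.11, adjusted p = 0.00045), and POLR1D (0.32, adjusted p = 0.00516) and POLR3C (0.28, adjusted p = 0.00581) rose too. POLR1C fell from 59.2 and 61.5 CPM to 42.5 and 38.8 CPM (−0.57 ± 0.10, adjusted p = 0.000283), with POLR3D (−0.48, adjusted p = 0.00164) and POLR1B (−0.31, adjusted p = 0.0115). POLR3G, POLR1C and POLR3D kept these calls under all 8 alternatives, while POLR1B lost its call without any 1 of 3 libraries, POLR1D without either of T0 A and DMSO medium B, and POLR3C without T0 B. POLR1C, POLR3D and POLR1B are also among those that rose in etoposide medium of WT donors, a comparison that shares the DMSO medium libraries. With KO donors 9 members rose and none fell, where 18.1% of all genes rose and 18.7% fell, among them POLR3G (0.56), POLR2M (0.52), POLR1D (0.46), POLR3E (0.46), POLR3K (0.34), POLR2F (0.33), POLR3C (0.26) and POLR2C (0.19). That count was 5 without T0 A and 4 without T0 B. POLR3G, a form of a Pol III initiation subunit, POLR1D and POLR3E kept their KO donor calls under all 8 alternatives. POLR2C (adjusted p = 0.0487) lost its call under all 8, POLR3K (adjusted p = 0.0488) under 6, among them DESeq2, and POLR2M (adjusted p = 0.043) under 4, DESeq2 again among them. POLR3C was lost without either T0 library and POLR2F without T0 B.

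The factor lists were read in the RNA fits as well, where 16.1% of all genes rose and 18.5% fell with WT donors and 18.8% rose and 18.4% fell with KO donors. In etoposide against DMSO medium, 2 of 15 measured Pol III factors rose and 4 fell with WT donors, and 3 rose and 4 fell with KO donors, with SNAPC1 (−0.60 and −0.66) and SNAPC2 (−0.43 and −0.54) lower with both. These counts are near the shares of all genes. Of 7 Pol I factors 1 rose and 1 fell with each donor, with medians of 0.11 and 0.06. Among them UBTF, which opens ribosomal DNA for Pol I, fell by 0.36 and 0.53. Of 31 Pol II general factors 5 rose and 4 fell with WT donors and 10 rose and 4 fell with KO donors, with TAF13 higher by 1.02 and 1.23. Of 7 assembly factors 1 rose and 0 fell with each donor. Of 5 genes of mitochondrial transcription 3 rose and 0 fell with each donor. Of 24 Pol II elongation factors 2 rose and 6 fell with WT donors, and 7 rose and 3 fell with KO donors. In the interaction 2.12% of all genes passed in either direction. There 3 of 24 elongation factors had a higher log2 fold change in etoposide medium with KO than with WT donors. They included ELL2 (1.09, adjusted p = 8.5e-05, edgeR) and AFF4 (0.58, adjusted p = 0.019), both of the super elongation complex. Leaving out single libraries was not tried for the factor lists.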

How the data were processed

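The authors deposited raw read counts, of guides for the screen and of gene symbols for RNA, per the file headers. Bowtie2 (screen), DESeq2 (both assays) and hg19 (RNA) are named in the submitters' processing notes. Which guide library, RNA aligner, annotation and strand setting were used is not given in the sources used here. Guide counts were summed per gene (at least 3 guides; 6 genes left out) and scaled by TMM. Summed counts, and RNA counts after filterByExpr, were fitted over all libraries of an assay (12 and 5 residual degrees of freedom) with edgeR 4.0.16 (R 4.3.3), with Benjamini-Hochberg adjustment over all genes tested. The scripts were tested on simulated data. DESeq2 1.42.0, limma 3.58.1, other scalings and filters, a replicate block and leaving out each library were tried. The rule for named genes was every called member, the member with the smallest p in each class, and 2 called genes per factor list. This rule was not followed throughout: some factor lists have fewer called genes named, or none. Members that were not called are named for only some comparisons. Members and lists were chosen with earlier results of these data known. Of 6 promoter motifs, 3 were added after a promoter had been read. Of the members, 1 counts in the totals and is not reported here by itself.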

Additional observations from a re-analysis of the deposited data

How the results depend on the processing

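Scaling to the non-targeting guides gave 19 members called in place of 11 for WT growth, 4 in place of 1 and 5 in place of 3 for etoposide against DMSO in WT and KO cells, 9 in place of 5 and 5 in place of 2 for etoposide against T0, and 8 in place of 4 for the starting pools; the cause was not tested. With limma on the mean over guides, etoposide against DMSO in WT cells gave 2 and etoposide against T0 in WT cells 9. Fitting only the libraries compared gave 10 for etoposide against T0 in WT cells, 7 for the starting pools, 7 for KO against WT etoposide medium and 10 for DMSO medium against T0 with WT donors. DESeq2 gave 2, and no filter 6, for KO against WT DMSO medium, and no filter 1 for the RNA interaction. Leaving out 1 library gave 8 to 10 members for WT growth, 9 to 11 for KO growth, 1 to 3 and 1 to 6 for etoposide against DMSO, 0 to 1 for etoposide against T0 in each genotype and 0 to 3 for the starting pools. In RNA it gave 3 to 6 and 7 to 10 for etoposide medium with WT and KO donors, 0 to 2 for KO against WT etoposide medium, 0 to 8 for KO against WT DMSO medium, 0 to 2 for the interaction, and 4 to 5 and 4 to 13 for DMSO medium against T0. Same-letter libraries were not treated as pairs: in KO T0 and DMSO their deviations correlated at 0.104, 0.0626 and 0.172, each above every different-letter value of those groups (at most 0.0234), but over all pairs of screen groups the median was 0.0148. With the replicate block, the counts were 12 for WT growth, 12 for KO growth, 6 for etoposide against T0 in WT cells and 10 for DMSO medium against T0 with KO donors. The block gave each letter the same effect in all groups of an assay. It therefore could not fit a pairing confined to KO T0 and DMSO. Without 1 library of an RNA group, the lone sample left was assumed to vary like the other groups. Signs reversed, with nothing called, for POLR1A in etoposide against T0 in WT cells (−0.00039 under non-targeting scaling, −0.0139 to 0.0712 over libraries left out), POLR1B in the growth interaction (−0.136 to 0.0596) and POLR1C in the RNA interaction (−0.295 to 0.0323). The scarcest member guide had a mean count of 72.7.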
